A study of Mus musculus with 70 samples.

Results

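Open chromatin of the mouse pituitary was mapped by ATAC-seq in hypothyroid and hyperthyroid animals, and 1776 sites were deposited as regulated by thyroid hormone (T3). The sites described here are the 906 of these 1776 that shared no base with any peak of the T3 receptor TRβ in untreated pituitary, and the remaining 870 had such a peak. The choice used positions alone, on the mm9 genome. The deposited list of sites gives no direction, so that sites opened by T3 and sites closed by T3 stand together throughout.

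The 8 ATAC-seq libraries, 4 of each treatment, came from hypothyroid males, given methimazole (MMI) with potassium perchlorate in the drinking water, and from hyperthyroid males, given the same with T3 added for the last stretch. All of these mice carried the Rosa26Sun1-GFP allele, whose tagged nuclear envelope protein was switched on by Cre from the Thrb2-Cre driver, and tagged nuclei of single or pooled pituitaries were pulled down with an antibody to GFP. This driver marks cells of the anterior pituitary that have expressed the TRβ2 isoform, among them cells with TSH, growth hormone or prolactin, so the sites describe those nuclei and not the whole gland. The TRβ peaks came from whole pituitaries of untreated (euthyroid) ThrbHAB/HAB; Rosa26BirA/BirA males, in which the ligase BirA attaches biotin to a tagged TRβ that streptavidin beads then capture (ChAP-seq), each library being a pool of pituitaries. By the methods and the sample titles, peaks were called against Rosa26BirA/BirA mice, which carry the ligase and no tagged receptor, while the genotype label of these untreated control samples names the tagged receptor as well; they were taken as BirA. Calling used the 3 merged libraries of each genotype, so that single peaks have no error between replicates. RNA-seq was done on pooled pituitaries of wild-type and Thrb-deficient (Thrb-KO) adult males, with 4 libraries of each treatment in wild type and 5 of each in Thrb-KO. The strain label of all these samples is C57BL/6J, and the methods name mixed backgrounds that include 129 and FVB/N for the tagged lines. TRβ binding in hypothyroid and hyperthyroid pituitaries was not analysed here, so "without a TRβ peak" refers to untreated animals. The authors report that most ATAC sites increased by T3 were associated with TRβ binding sites defined in hypothyroid and hyperthyroid mice. Part of the sites described here may therefore be bound under those treatments, and their number was not counted.

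T3 receptors bind DNA mostly as pairs with the retinoid X receptor, and their best known binding sequence is a direct repeat of the half-site AGGTCA with a short spacer of fixed length. In the pituitary TRβ mediates the feedback by which T3 lowers the thyrotropin genes, and T3 raises the growth hormone gene in rodents. Chromatin can also open or close at a distance from the receptor, since other DNA-binding proteins keep it open; AP-1, a dimer of basic zipper proteins of the Fos and Jun families, is one of them.

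The sites without a TRβ peak were narrow and mostly far from genes' starts, yet a larger share of them than of the sites with a TRβ peak lay at a start. Their width had a median of 268 bp and ran from 76 to 1393 bp, against a median of 327.5 bp for the sites with a TRβ peak. By their centre, 456 (50.3%) were intergenic, 391 (43.2%) lay in introns, 45 in noncoding exon sequence and 14 in coding exons. Within 1 kb of an annotated transcription start lay 112 (12.4%, 95% Wilson confidence interval 10.4 to 14.7%), against 40 of the 870 with a TRβ peak (4.60%). The difference was 7.76 percentage points (95% Newcombe interval 5.21 to 10.4). At 20 kb the shares were 46.5% and 46.8%, and the median distance to a start was 23463 and 22915 bp. Counting only starts of protein-coding transcripts, an alternative chosen after seeing the data, 9.16% of the sites without and 2.07% of the sites with a TRβ peak lay within 1 kb. All these intervals cover counting error only, and sites are not replicates of a condition.

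Most of these sites were far from any TRβ peak of untreated pituitary, and few were near misses of that list. A pituitary TRβ peak lay within 100 bp of 5, within 1 kb of 40 (4.42%), within 10 kb of 118 (13.0%) and within 100 kb of 447 (49.3%), and the median gap was 102671 bp. The site closest to the limit, chr1:153855740-153856098 in an intron of 1700025G04Rik, ended 3 bp before a TRβ peak with 24 HAB;BirA reads against 5 control reads. Gaps of 17, 20, 38 and 72 bp followed at chr9:30060767-30060923, at chr3:138434570-138434825 in an intron of the tetraspanin gene Tspan5, at chr8:11187538-11187792 and at chr17:3804502-3804779. On the other side of the limit, chr17:56997788-56997962 in Acsbg2, a gene for an acyl-CoA synthetase, shared 12 bases with a TRβ peak, and the next sites shared 27, 34, 37 and 55. The site at chr8:11187538-11187792 lay beside the TRβ peak with the most reads among the 5 near misses, 111 against 11 in the control. Another site without a TRβ peak was within 20 kb of 48 (5.30%), and a T3-regulated site with a TRβ peak was within 20 kb of 47 (5.19%).

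The chromosomes contributed unevenly at the sex chromosomes. On the autosomes the share of T3-regulated sites that lacked a TRβ peak ran from 37.7% on chromosome 17 (23 of 61) to 59.7% on chromosome 16 (37 of 62). On chromosome X it was 73.3%, or 22 of 30 sites, and both sites on chromosome Y lacked one. No TRβ peak was listed on chromosome Y, so its 2 sites could not have had one, and they enter the count below. X and Y together held 24 of the 906 (2.65%) and 8 of the 870 (0.920%), a difference of 1.73 percentage points (95% Newcombe interval 0.494 to 3.07).

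The sites were also compared with the TRβ peaks listed for the other tissue of the series. Which libraries entered the merged cortex files could not be settled from the sources used here, and the counts below carry that limit. A TRβ peak of untreated cerebral cortex overlapped 16 (1.77%, 95% Wilson interval 1.09 to 2.85%), against 84 of the sites with a pituitary TRβ peak (9.66%), a difference of -7.89 percentage points (95% Newcombe interval -10.1 to -5.80). The cortex peak with the most reads among these 16, 37 HAB;BirA reads against 1 control read, shared 249 of the 263 bases of the intergenic site chr13:44317787-44318049, which held a repeat at 10 of 12 bases with a 4 base spacer. The next 4 by reads covered chr3:145764077-145764320 in an intron of Wdr63 with 35 against 8, chr14:64764981-64765125 in an intron of Msra with 34 against 0, chr7:31867864-31868225 near Fxyd3 with 27 against 3, and chr19:42854120-42854611 at the start of Hps1 with 20 against 3. Msra encodes methionine sulfoxide reductase A and Hps1 a protein needed for lysosome-related organelles. One more of the 16 was chr8:72723910-72724515 in Slc25a42, a gene that rose with T3, under a cortex peak with 8 reads against 0. Another, chr5:38550373-38550994, lay at the start of Nsg1, which fell in wild type (log2 change -0.65, limma adjusted p = 0.00426).

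The repeat that TRβ is best known to bind was present in a minority of these sites, less often than in sites with a TRβ peak and more often than in DNA nearby. The mm9 sequence of each site was searched on both strands for AGGTCA, 4 bases of any kind and AGGTCA again (DR4), allowing up to 2 mismatches in the 12 half-site bases. Of the 906 sites, 166 held it (18.3%, 95% Wilson interval 15.9 to 21.0%), against 383 of the 870 (44.0%), a difference of -25.7 percentage points (95% Newcombe interval -29.8 to -21.5). In regions of the same length 10 kb further along the chromosome it was present in 29 (3.20%), 15.1 percentage points below the sites (95% Newcombe interval 12.4 to 17.9). The sites' median content of G and C was 48.8% and that of the shifted regions 42.8%, and the part of composition in the difference was not tested. The sites with a TRβ peak were wider. In the central 200 bp the shares without and with a TRβ peak were 14.9% and 35.2%. The difference was -20.3 percentage points (95% Newcombe interval -24.2 to -16.3), with its interval computed after the values were seen. An exact repeat was found in 0 of the 906 sites and in 9 of the 870, a repeat with 1 mismatch in 24 and 83, and one with 2 mismatches in 142 and 291. Spacers of 0 to 8 bases other than 4 were found in 4.42 to 6.51% of the sites each, and the single half-site AGGTCA in 33.4%, against 50.7% of sites with a TRβ peak and 18.8% of the shifted regions. The inverted repeat without a spacer was found in 16 sites (1.77%) and in 14 of the shifted regions.

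Where the repeat occurred within the set was looked at after the values were seen. It was found in 11 of the 112 sites within 1 kb of a start (9.82%) and in 155 of the 794 farther away (19.5%). By the gap to the nearest pituitary TRβ peak, it was in 11.0% of the 118 sites with a gap of up to 10 kb, in 18.2% of the 329 with a gap up to 100 kb and in 20.3% of the 459 beyond. The sites nearest to a TRβ peak thus held the repeat at a lower share than the far ones. The first and the last of these 95% Wilson intervals were 6.55 to 17.9% and 16.8 to 24.2%. Their overlap does not measure the difference between the shares, for which no interval was computed.

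The closest matches show what a near-complete repeat looked like where no TRβ peak was called. These are the first 5 by position of the 24 sites with a single mismatch, on the strand of the repeat, with both half-sites in capitals and 30 bases on each side. None of the 5 lay within 10 kb of a transcription start.
chr1:178358019-178358094, minus strand: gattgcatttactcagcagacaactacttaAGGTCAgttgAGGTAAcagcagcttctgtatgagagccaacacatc
chr3:16711401-16711476, minus strand: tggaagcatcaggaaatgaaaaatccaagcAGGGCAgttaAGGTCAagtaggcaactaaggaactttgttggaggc
chr3:28043764-28043839, plus strand: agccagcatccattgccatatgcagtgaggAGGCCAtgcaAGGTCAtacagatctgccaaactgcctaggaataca
chr3:121614888-121614963, minus strand: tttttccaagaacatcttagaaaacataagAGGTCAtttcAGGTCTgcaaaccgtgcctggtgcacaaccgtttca
chr3:151327377-151327452, plus strand: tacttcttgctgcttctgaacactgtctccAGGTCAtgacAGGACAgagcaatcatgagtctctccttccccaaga

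The AP-1 sequence was found at like shares in whole sites without and with a TRβ peak, and at a somewhat larger share without a peak when only the centres of sites were searched. TGANTCA was present in 211 of the 906 sites (23.3%, 95% Wilson interval 20.7 to 26.2%) and in 200 of the 870 (23.0%), a difference of 0.301 percentage points (95% Newcombe interval -3.63 to 4.22). The shifted regions held it in 8.94%. In the central 200 bp, a window of equal width that reached past the ends of 224 narrower sites without and 92 with a TRβ peak, the shares were 19.5% and 15.7%, a difference of 3.79 percentage points (95% Newcombe interval 0.238 to 7.32), with its interval computed after the values were seen. It was present at like shares at starts (23.2%) and away from them (23.3%), and in 28.3% of the sites that held DR4 against 22.2% of those that did not. Neither DR4 nor AP-1 was found in 576 of the sites (63.6%), against 369 of those with a TRβ peak (42.4%), and both were found in 47.

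Other short sequences tied to pituitary or general factors were counted in the same way, as descriptions. GGGCGG, the GC box of SP and KLF proteins, was in 10.9% of the sites, 7.47% of the sites with a TRβ peak and 2.87% of the shifted regions. It was concentrated at starts, in 53 of the 112 sites within 1 kb of one (47.3%) and in 46 of the 794 others (5.79%). CAGATG, an E-box of NEUROD proteins, was in 35.8%, against 45.6% of the sites with a TRβ peak and 22.2% of the shifted regions. AAAGGTCA, the sequence bound by single NR4A receptors, was in 4.19%, 4.14% and 1.43% of the same 3 sets. Lower than in the shifted regions were AGATAA of GATA factors (12.9% against 18.2%), TAATTA of LIM-homeodomain factors (5.96% against 9.93%), CCAAT of NF-Y (30.2% against 36.4%) and TATNCAT of POU1F1 (14.9% against 18.7%). The sites with a TRβ peak held the GATA, NF-Y and POU1F1 sequences in 13.3%, 33.3% and 17.9%, and their own shifted regions in 21.5%, 44.7% and 19.0%. The shifted regions have less G and C than the sites, as given above, and the part of composition was not tested for any of these sequences. TAATTA was also less frequent than in the sites with a TRβ peak, of which 11.4% held it. ACANNNTGT of the glucocorticoid receptor and CNAGGNGGC of CTCF were in 12.8% and 5.19%, against 18.2% and 8.28% of the wider sites with a TRβ peak.

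The RNA-seq libraries were compared next for the genes that these sites surround. RNA of Thrb, the gene targeted in Thrb-KO, was at 239, 242, 249 and 297 CPM (reads scaled to a common library total, not divided by transcript length) in hypothyroid wild type and at 124, 117, 72.4 and 103 CPM in hyperthyroid wild type. The libraries labelled Thrb-KO held it at 272, 295, 278, 271 and 239 CPM in hypothyroid and at 288, 301, 239, 245 and 228 CPM in hyperthyroid mice. The hyperthyroid wild-type libraries were thus the low ones, and Thrb-KO libraries were not lower than wild type; the table does not show whether this RNA encodes a receptor. A site without a TRβ peak lies inside Thrb itself, at chr14:18507818-18507921 in an intron, 668 bp from a TRβ peak. The log2 change with T3 was -1.32 in wild type (standard error 0.14, limma adjusted p = 1.27e-06, lower in 4 of 4 libraries), -0.99 and -1.64 within the library sets described below, and -0.06 in Thrb-KO (limma adjusted p = 1), a difference of -1.26 (limma adjusted p = 0.000322).

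The libraries differed in ways apart from their groups. Depth ran from 21453548 to 55273749 reads. Lars2 RNA was at 2571 to 3420 CPM in replicates 1 and 2 of every group and at 53.2 to 95.1 CPM in replicates 3 to 5, so the changes of some genes are also given within these library sets. Every named gene kept its direction in both sets, apart from Junb. Hyperthyroid wild-type replicate 3 stood apart by its hormone RNA. The summed CPM of 11 endocrine markers was 69802, 70790, 98463 and 90940 in hypothyroid and 127253, 107708, 224466 and 146161 in hyperthyroid wild type. Gh was the most abundant of them and no marker was at 0. In Thrb-KO it was 78062, 77134, 91242, 91577 and 93780 in hypothyroid and 113018, 109511, 110083, 114786 and 136770 in hyperthyroid mice. Of these 11 genes, 2 rose and 2 fell in wild type, and 1 rose and 2 fell in Thrb-KO. Marker sums of some other cell types also stood apart between the wild-type treatments, as given at the end. In bulk tissue, fewer cells of a type and less RNA per cell cannot be told apart, and the part of these marker levels in the results below was not tested.

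A gene was taken as near a site when the site lay within 20 kb of the gene body. Of the 906 sites, 563 (62.1%) had a gene of the RNA table that near, 457 (50.4%) a gene tested for a change, and 103 (11.4%) a gene that rose or fell in wild type. These shares are not given for the sites with a TRβ peak, so they have no background here. The genes near these sites numbered 700, of which 535 had CPM above 1 in all 18 libraries and were tested. The genes changed in both directions in wild-type mice. T3 raised 46 of the 535 (8.60%), where 3.87% of all 13145 genes tested rose, and lowered 55 (10.3%), where 5.59% of all genes fell, where both a limma adjusted p under 0.05 and 1.5-fold or more were asked for. The median log2 change was -0.02 near the sites and -0.04 over all genes, and the median size of the change was 0.25 and 0.16. In Thrb-KO mice 7 rose (1.31%), where 0.411% of all genes did, and 5 fell (0.935%), where 0.601% did. The difference between the responses of the genotypes was called for 55 (10.3%), where 4.26% of all genes were. Without hyperthyroid wild-type replicate 3 the wild-type counts were 63 higher and 48 lower (11.7% and 8.91%, where 4.92% and 5.24% of all genes rose and fell). Within replicates 1 and 2 they were 58 and 49 (10.8% and 9.16%, against 4.24% and 5.29% of all genes), and within replicates 3 and 4 they were 48 and 67 (8.97% and 12.5%, against 4.20% and 7.27%).

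Rises and falls were also counted by the other T3-regulated sites around a gene, with no test. Of the 700 genes, 608 had no T3-regulated site with a TRβ peak within 20 kb, and 456 of these were tested. Among them 19 rose (4.17%), a share close to that of all genes, and 51 fell (11.2%). Among the 79 tested genes near both kinds of site, 27 rose (34.2%) and 4 fell (5.06%). Of the 549 tested genes near a site with a TRβ peak, 146 rose (26.6%) and 23 fell (4.19%). These counts move with the scaling and with hyperthyroid wild-type replicate 3, in settings combined after the values were seen. With CPM rescaled by TMM 51 genes near the sites rose and 51 fell, and 613 and 602 of all genes. Among the 456 without a T3-regulated site with a TRβ peak nearby the rises and falls were then 22 and 47 (4.82% and 10.3%, against 4.66% and 4.58% of all genes). By edgeR they were 27 and 51 (5.92% and 11.2%, against 5.46% and 5.14%) and by DESeq2 29 and 51 (6.36% and 11.2%, against 5.75% and 5.20%). In replicates 1 and 2 alone they were 28 and 46 (6.14% and 10.1%, against 4.24% and 5.29%), in the other libraries alone 22 and 59 (4.82% and 12.9%, against 4.20% and 7.27%), and without that replicate 28 and 44 of 460 (6.09% and 9.57%, against 4.92% and 5.24%). In Thrb-KO mice 2 of the 456 rose (0.439%, where 0.411% of all genes did) and 4 fell (0.877%, where 0.601% did), and the difference between genotypes was called for 35 (7.68%, where 4.26% of all genes were).

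By the kind of site beside them, a split made after the values were seen, the 72 tested genes near a site with DR4 included 6 that rose (8.33%) and 1 that fell (1.39%), and the 472 near a site without DR4 included 41 (8.69%) and 54 (11.4%), where 3.87% of all genes rose and 5.59% fell. Near sites with the AP-1 sequence 9 of 122 rose (7.38%) and 10 fell (8.20%), and near sites without it 38 of 427 rose (8.90%) and 45 fell (10.5%). Near sites within 1 kb of a start 8 of 123 rose (6.50%) and 16 fell (13.0%), and near the other sites 38 of 414 rose (9.18%) and 39 fell (9.42%).

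Col4a3 and Col4a4, which encode chains of type IV collagen in basement membranes and are read in opposite directions from a shared start region, had the site chr1:82583239-82583866 at that start, 2935 bp from a TRβ peak. Col4a3 RNA was at 12.2, 15.5, 4.68 and 5.73 CPM in hypothyroid and at 114, 113, 35.0 and 62.3 CPM in hyperthyroid wild type. In Thrb-KO it was at 7.72, 7.95, 5.64, 4.77 and 4.57 CPM and, with T3, at 7.69, 9.24, 6.67, 5.55 and 4.71 CPM. Every hyperthyroid wild-type library was above every hypothyroid one, replicates 1 and 2 above 3 and 4 in both conditions, while the Thrb-KO groups overlapped. The log2 change was 2.95 in wild type (standard error 0.36, limma adjusted p = 6.47e-06, higher in 4 of 4 libraries), 2.96 and 2.95 within the library sets, and 0.12 in Thrb-KO (limma adjusted p = 1). For Col4a4 it was 2.18 (standard error 0.35, limma adjusted p = 0.000139), from 4.87 to 16.2 CPM in hypothyroid to 22.3 to 69.1 CPM in hyperthyroid wild type.

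Hunk, a serine/threonine kinase gene, held the intronic site chr16:90424095-90424526, 1395 bp from a TRβ peak. Its RNA was at 15.6, 15.5, 10.9 and 10.8 CPM in hypothyroid and at 104, 104, 66.7 and 89.4 CPM in hyperthyroid wild type. Thrb-KO libraries held it at 14.0, 16.6, 12.5, 14.2 and 11.3 CPM and, with T3, at 36.8, 40.1, 36.0, 38.5 and 35.3 CPM. The groups did not overlap in either genotype, and the hyperthyroid Thrb-KO libraries lay between the wild-type groups. The log2 change was 2.70 in wild type (standard error 0.15, limma adjusted p = 4.09e-10) and 1.39 in Thrb-KO (limma adjusted p = 3.19e-06), in all libraries of each. Olfml2b, which encodes a secreted protein with an olfactomedin domain, showed the same order. Its site was chr1:172585739-172586074 in an intron, and its RNA was at 3.08, 2.13, 2.07 and 2.18 CPM in hypothyroid and at 14.8, 12.5, 13.3 and 16.3 CPM in hyperthyroid wild type. The level in Thrb-KO was 1.13, 1.80, 1.63, 1.15 and 1.31 CPM and, with T3, at 4.84, 4.23, 4.17, 3.97 and 4.89 CPM. The groups were apart in both genotypes, at log2 changes of 2.18 (limma adjusted p = 3.22e-10) and 1.18 (limma adjusted p = 1.72e-06).

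The other large rises near these sites were those of Slc35f1, Rcl1, Sh3rf2 and Gpr83. Slc35f1, a gene of a family of nucleotide sugar transporters, held chr10:52668238-52668478 in an intron and went from 4.77 to 7.26 CPM to 16.9 to 33.7 CPM, a log2 change of 1.95 (limma adjusted p = 4.33e-07), with 0.77 in Thrb-KO (limma adjusted p = 0.0168). Rcl1, whose product takes part in the processing of ribosomal RNA, held chr19:29214347-29214471 in an intron and went from 6.53 to 10.4 CPM to 24.3 to 37.1 CPM, a log2 change of 1.76 (limma adjusted p = 7.34e-07). Sh3rf2, which encodes a protein with SH3 and RING domains, had the pair of sites chr18:42322446-42322684 and chr18:42322722-42322907 past its end, 567 and 344 bp from a TRβ peak. Its RNA went from 3.19 to 3.88 CPM to 11.2 to 18.2 CPM, a log2 change of 1.70 (limma adjusted p = 6.72e-09). Gpr83, a G protein-coupled receptor gene, had chr9:14682938-14683171 at 7705 bp past the gene and went from 2.25 to 4.85 CPM to 9.41 to 15.0 CPM, a log2 change of 1.64 (limma adjusted p = 2.02e-06). The log2 changes of Rcl1, Sh3rf2 and Gpr83 in Thrb-KO were 0.06, 0.22 and 0.15, with limma adjusted p of 1, 0.628 and 1. Each of these 8 genes, chosen as the largest rises whose libraries did not overlap, also had a T3-regulated site with a TRβ peak within 20 kb. So did 79 of all 535 tested genes near the sites and 27 of the 46 that rose, with no test of a difference.

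The 8 largest falls chosen in the same way had no such site within 20 kb. The same held for 456 of all 535 tested genes near the sites and for 51 of the 55 that fell, with no test. Serpinb1a, which encodes an inhibitor of serine proteases of neutrophils, had the site chr13:32920944-32921184 at 12777 bp past its end, 175317 bp from the nearest TRβ peak. Its RNA was at 23.3, 23.1, 35.4 and 29.9 CPM in hypothyroid and at 1.60, 1.65, 2.07 and 1.94 CPM in hyperthyroid wild type. Libraries of Thrb-KO stood at 12.2, 9.62, 6.26, 7.69 and 17.3 CPM and, with T3, at 1.11, 1.31, 1.24, 1.32 and 1.49 CPM. Hyperthyroid libraries of both genotypes were low and none reached a hypothyroid one. The log2 change was -3.34 in wild type (standard error 0.21, limma adjusted p = 1.71e-09) and -2.26 in Thrb-KO (standard error 0.19, limma adjusted p = 5.87e-07), a difference of -1.08 (limma adjusted p = 0.026).

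Bdnf, which encodes brain-derived neurotrophic factor, had the site chr2:109533569-109533985 with its centre 57 bp from one of its transcription starts, 223616 bp from the nearest TRβ peak. Its RNA was at 43.3, 45.8, 46.4 and 56.4 CPM in hypothyroid and at 6.86, 6.81, 5.96 and 6.02 CPM in hyperthyroid wild type. Thrb-KO mice had it at 52.9, 47.9, 41.1, 41.1 and 60.8 CPM and, with T3, at 20.5, 24.0, 25.5, 21.3 and 21.0 CPM. The hypothyroid groups overlapped one another, and the hyperthyroid Thrb-KO libraries were above all hyperthyroid wild-type and below all hypothyroid ones. The log2 change was -2.72 in wild type (standard error 0.12, limma adjusted p = 1.79e-11) and -1.07 in Thrb-KO (standard error 0.11, limma adjusted p = 4.99e-06), a difference of -1.64 (limma adjusted p = 3.63e-06). Asb4, which encodes a substrate adaptor of a ubiquitin ligase, had chr6:5330331-5330642 at 2744 bp before its start. Its RNA was at 272, 284, 370.1 and 333 CPM in hypothyroid and at 46.7, 47.8, 47.9 and 68.3 CPM in hyperthyroid wild type. The Thrb-KO libraries read 139, 149.9, 155, 164 and 155 CPM and, with T3, at 105, 117, 126, 128 and 119 CPM. Both Thrb-KO groups lay between the wild-type groups, and the log2 change was -2.56 in wild type (limma adjusted p = 3.38e-11) and -0.36 in Thrb-KO (limma adjusted p = 0.128).

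Tmc3, of the transmembrane channel-like family, had chr7:90733273-90733496 across its start and fell from 74.1 to 82.4 CPM to 8.35 to 19.5 CPM, a log2 change of -2.46 (limma adjusted p = 1.13e-07). Loxhd1, a gene needed by hair cells of the inner ear, held chr18:77522773-77522905 in an intron near its start and fell from 42.0 to 77.6 CPM to 7.91 to 22.8 CPM, a log2 change of -1.99 (limma adjusted p = 1.1e-05). Kcnmb4, the gene of an accessory subunit of calcium-activated potassium channels, held chr10:115907217-115907612 in an intron and fell from 30.4 to 45.8 CPM to 7.75 to 11.3 CPM, a log2 change of -1.88 (limma adjusted p = 1.97e-08). In Thrb-KO the log2 changes of Tmc3, Loxhd1 and Kcnmb4 were -0.66, -0.29 and -0.34, none past the threshold in the model without a block. For each of these genes, every hyperthyroid Thrb-KO library was below the hypothyroid library of the same number. Thrb-KO values of named genes under the replicate block are not given here. Gpc4, which encodes a cell-surface heparan sulfate proteoglycan, held chrX:49425701-49426023 in an intron and was at 278, 284, 330.2 and 290.4 CPM in hypothyroid and at 95.6, 98.6, 69.9 and 94.5 CPM in hyperthyroid wild type. Its log2 change was -1.72 (limma adjusted p = 4.62e-10), with -0.48 in Thrb-KO, a change under 1.5-fold (limma adjusted p = 0.00347). Tnfrsf12a, the receptor gene for the cytokine TWEAK, had chr17:23821393-23821593 at 6977 bp from the gene and 243 bp from a TRβ peak. Tnfrsf12a fell from 18.0 to 27.9 CPM to 5.74 to 12.0 CPM, with -1.38 as its log2 change (limma adjusted p = 0.000446), and its difference between genotypes of -1.12 missed the threshold (limma adjusted p = 0.0579). The transcription start nearest to chr17:23821393-23821593, at 508 bp, was that of Cldn9, which also fell in wild type (log2 change -0.76, limma adjusted p = 0.000113).

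Genes whose T3 response differed between genotypes added 4 rises and 4 falls to those named. Slc25a42, which encodes a mitochondrial carrier of coenzyme A, was at 43.5, 40.8, 43.8 and 40.2 CPM in hypothyroid and at 149, 138, 91.6 and 158 CPM in hyperthyroid wild type. In Thrb-KO the values were 35.0, 34.6, 44.0, 38.9 and 42.3 CPM and, with T3, at 36.1, 36.2, 39.6, 40.1 and 44.5 CPM. The wild-type groups were apart and the Thrb-KO groups overlapped, at log2 changes of 1.62 (limma adjusted p = 5.6e-08) and 0.01 (limma adjusted p = 1) and a difference of 1.61 (limma adjusted p = 1.65e-05). Rap1gap2, which encodes a GTPase-activating protein of Rap1, the zinc finger gene Zfp386 and Iglon5, a cell adhesion gene of the immunoglobulin family, rose by log2 changes of 1.52, 1.31 and 1.30, with differences between genotypes of 1.01, 0.78 and 0.68 (limma adjusted p = 0.0327, 0.0405 and 0.0105). Their sites were chr11:74199330-74199733, chr12:117273763-117274030 and chr7:50744027-50744377. Of these 4 rises, Iglon5 had a T3-regulated site with a TRβ peak within 20 kb, and Slc25a42, Rap1gap2 and Zfp386 had none.

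Sequences are shown for the sites beside the named genes that held an AP-1 or DR4 match outside exons, since they join the sequence counts to genes whose RNA changed. TGANTCA, or the half-sites of the repeat, is in capitals with 30 bases on each side; the repeat in Slc25a42 matched at 10 of 12 bases and lay outside the bases that its site shared with a cortex TRβ peak.
Rcl1, AP-1, chr19:29214379-29214445, plus strand: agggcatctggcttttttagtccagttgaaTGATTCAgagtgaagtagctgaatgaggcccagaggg
Gpr83, AP-1, chr9:14683065-14683131, plus strand: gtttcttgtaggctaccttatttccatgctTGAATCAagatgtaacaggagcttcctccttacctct
Serpinb1a, AP-1, chr13:32920932-32920998, plus strand: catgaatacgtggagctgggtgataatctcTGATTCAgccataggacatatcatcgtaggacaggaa
Kcnmb4, AP-1, chr10:115907495-115907561, plus strand: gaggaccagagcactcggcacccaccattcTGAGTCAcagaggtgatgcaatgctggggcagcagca
Slc25a42, DR4, chr8:72724156-72724231, minus strand: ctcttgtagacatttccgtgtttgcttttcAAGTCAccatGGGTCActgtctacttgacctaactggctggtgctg

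On the side of the falls, Myoc, which encodes the secreted protein myocilin, went from 63.8 to 89.8 CPM to 19.4 to 38.4 CPM in wild type, with its site chr1:164551709-164552061 at 17220 bp from the gene. Ednra, the endothelin receptor type A gene, had chr8:80247990-80248438 at its start and went from 9.87 to 12.4 CPM to 3.85 to 5.99 CPM. Shf, which encodes an SH2 domain adaptor, had chr2:122180328-122180633 in an intron and went from 9.39 to 14.4 CPM to 3.52 to 5.73 CPM. Within the library sets the change of Shf was -1.51 and -0.80. The log2 changes of Myoc, Ednra and Shf were -1.35, -1.13 and -1.15 in wild type and -0.48, -0.25 and -0.33 in Thrb-KO, with differences of -0.87, -0.87 and -0.82 (limma adjusted p = 0.0218, 0.00197 and 0.0332). Thrb, given above, was the last of the 4 falls and had a T3-regulated site with a TRβ peak within 20 kb, and Myoc, Ednra and Shf had none.

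In Thrb-KO mice the genes near these sites that were called are few enough to name, and those outside the rule for named genes were picked after their values were seen. The 5 that fell were Serpinb1a, Bdnf, Pld3, Cntnap2 and Diap3. Pld3, whose product is a lysosomal exonuclease, had log2 changes of -1.23 in wild type and -0.71 in Thrb-KO (limma adjusted p = 5.96e-09 and 1.18e-05). Cntnap2, a neuronal adhesion gene of the neurexin family, had -0.57 and -1.16 (limma adjusted p = 0.00634 and 1.2e-05). Diap3, a formin gene of actin assembly, moved in opposite directions, at 0.44 in wild type and -0.62 in Thrb-KO (limma adjusted p = 0.0176 and 0.00395), and its difference between genotypes was 1.07 (limma adjusted p = 0.000653); the wild-type change was under 1.5-fold. The 7 that rose were Hunk, Olfml2b, Slc35f1, Trp53inp2, Klf13, Pfkfb3 and Iglon5, at log2 changes from 1.39 down to 0.62.

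Diap3 also had the most sites of any gene, 4 within 20 kb, and no T3-regulated site with a TRβ peak that near. It was followed by 3 each at Epha6, an ephrin receptor gene, Lilra6, a leukocyte receptor gene, the scaffold gene Magi2 and Trhde, whose enzyme degrades thyrotropin-releasing hormone. Epha6, Magi2, Trhde and Diap3 are long genes, of 952049, 1479004, 403485 and 485858 bp, and Lilra6 spans 7224 bp. Of these, Diap3 and Magi2 passed the limit of CPM above 1 in all libraries, and Magi2 had a log2 change of -0.26 in wild type (limma adjusted p = 0.343).

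Genes known in the pituitary or in the response to T3 were looked up by lists; of all 21695 genes of the table with a place on the genome, 700 (3.23%) lay near a site. Of the list of 19 pituitary hormones and their receptors, 2 did, Gh and Esr1, and both rose in wild type. The list of 16 lineage factors and the list of 16 T3 targets of other tissues had 0 near a site. In the latter list Spot14 is another name of Thrsp, which the list also holds. Thrsp was placed and had no site nearby, so that gene is counted under both names. Of 16 genes of thyroid hormone action 1 did, Thrb, which fell, and of 10 genes of AP-1 proteins 1 did, Junb, which did not pass the test. Over whole lists, where 3.87% of all genes tested rose and 5.59% fell, 3 of 17 tested hormone and receptor genes rose and 3 fell in wild type, 1 of 13 lineage factors rose and 2 fell, 2 of 13 genes of hormone action fell, 3 of 9 T3 targets rose, and 0 of 8 AP-1 genes changed by limma, 2 of them at an unadjusted p under 0.05. In the same order of lists edgeR called 6, 2, 4, 3 and 0 genes in either direction and DESeq2 called 6, 2, 4, 3 and 0, where limma had called 6, 3, 2, 3 and 0. With lists this short, 1 gene moves a share by several percentage points.

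Gh, the growth hormone gene, had the widest of the 906 sites, chr11:106160347-106161739 with 1393 bp, which reached from past the 3′ end into the gene and ended 1312 bp from a TRβ peak. Its RNA was at 48332, 51022, 66226 and 57732 CPM in hypothyroid and at 104306, 87356, 159094 and 112135 CPM in hyperthyroid wild type. For Thrb-KO the libraries gave 57865, 57762, 73698, 70320 and 72480 CPM and, with T3, at 94943, 89351, 82874, 88335 and 114941 CPM. The groups were apart in both genotypes, with hyperthyroid wild-type replicate 3 the highest. The log2 change was 1.03 in wild type (standard error 0.21, limma adjusted p = 0.0017), 0.86 without that library, and 0.50 in Thrb-KO (limma adjusted p = 0.337), and the difference of 0.53 missed the threshold (limma adjusted p = 0.447). The wild-type change missed the threshold when all genes were fitted without the filter on CPM.

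Esr1, the gene of estrogen receptor α, held a pair of intronic sites, chr10:5366210-5366386 and chr10:5475267-5475557. Its RNA was at 163, 186, 77.2 and 90.2 CPM in hypothyroid and at 314, 331, 140.3 and 207 CPM in hyperthyroid wild type. The groups overlapped, since replicates 1 and 2 were above 3 and 4 in each, and within the library sets the hyperthyroid libraries were higher. With a standard error of 0.30, the log2 change was 0.95 (limma adjusted p = 0.0305), 0.88 and 1.02 in the sets taken singly, and it missed the threshold without hypothyroid replicate 3 or 4 or hyperthyroid replicate 1 or 2, the log2 fold change of Esr1 in wild type then being 0.74, 0.81, 0.81 and 0.79. Those fits had no block, and the replicate block ended no wild-type call of a named gene. In Thrb-KO the log2 change of Esr1 was 0.43 (limma adjusted p = 0.912). In both genotypes each hyperthyroid library was above the hypothyroid library of the same number. Junb, the gene of an AP-1 subunit, had chr8:87510028-87510198 at 7411 bp from the gene. It was at 72.2, 82.2, 20.7 and 40.6 CPM in hypothyroid and at 64.3, 33.4, 62.5 and 92.4 CPM in hyperthyroid wild type, so the groups overlapped. Its log2 change of 0.32 (limma adjusted p = 0.782) was -0.72 and 1.36 within the library sets.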

How the data were processed

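The authors mapped ChAP-seq reads to mm9, merged the replicates of a genotype and called peaks with SICER (version 1.1 in the submitters' processing notes) on HAB;BirA against BirA libraries. Their deposited lists give the read count of both merged libraries, a p-value with a false discovery rate, and a scaled fold, a ratio over control that was neither used nor printed here. By the methods, ATAC-seq reads were mapped with Bowtie2, peaks called with MACS2 and conditions compared with edgeR, while a figure legend of the authors names SICER and another pooling of animals, and the list does not say which holds; the adjusted p-value in that deposited list was not used. RNA-seq reads were mapped by the authors to RefSeq transcripts of mm9, with BBMap by the methods while the processing notes list STAR, and deposited as CPM per transcript; the tool that counted them is not given in the sources used here. Signal tracks, histone marks and the hypothyroid and hyperthyroid ChAP-seq were not analysed here.

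Here a site counted as without a TRβ peak when it shared no base with one (overlap limit 1 base). Genes and starts came from the mm9 annotation, and 12898 of 13145 tested genes (98.1%) had a place on it. Distances to starts ran from a site's centre, and gaps were coordinate differences. The transcript with the highest mean CPM stood for a gene. Genes above 1 CPM in all 18 libraries were fitted with limma 3.58.1 (R 4.3.3) on log2(CPM + 1), in 1 model of the 4 groups with Benjamini-Hochberg adjustment, and called at an adjusted p under 0.05 and 1.5-fold. Fold changes are on this scale, which understates those of low genes. Each library's values were whole multiples of a step within 0.01 for 99.99% of values (rounded) in the library with the lowest share, which gave whole reads; edgeR 4.0.16 on them called 58 higher and 54 lower genes near the sites in wild type and DESeq2 1.42.0 called 60 and 54. Over all genes limma called 509 higher and 735 lower, edgeR 718 and 675, and DESeq2 756 and 683; limma after rescaling by TMM called 613 and 602, and the part of the tool was not separated from that of the scaling. The floor of 3 reads equals 0.0543 to 0.140 CPM. Site scripts used Python 3.11.15 with numpy 2.4.6, pandas 2.3.3, scipy 1.17.1, pysam 0.24.0 and samtools 1.23.1, and the scripts were tested on simulated data.

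Libraries with the same replicate number deviated together from their group means (correlation 0.13 to 0.82, over 0.1 in 25 of 25 pairs), and the library of the same number was the closest match in 10 of the 25. The numbers also separate the 2 library sets, which may be all that they share. The model had no block, and a replicate block was fitted as an alternative; this comes from the values, not from the labels. Libraries are taken as separate pools of animals, as the methods say.

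Named genes were the 8 largest rises and 8 largest falls among called genes near a site whose wild-type groups did not overlap, the 4 largest in each direction among those called in the difference between genotypes, and every gene of 5 lists near a site. Named sites were the 6 with the fewest DR4 mismatches (1 of them is not reported here), the 5 nearest to the limit on each side, the 5 under the strongest cortex peaks and the 5 genes with the most sites. Members and lists were chosen with earlier results of these data known.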

Additional observations from a re-analysis of the deposited data

Results flagged for a closer look

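In 4 of 108 groups of 4 or 5 libraries of the named genes, the gap between the highest or lowest library and the next was a larger part of the group's range than Dixon's 95% critical value, which chance exceeds in about 1 in 20 groups. They were Olfml2b in hypothyroid wild-type replicate 1 at 3.08 CPM, Gpr83 in hypothyroid Thrb-KO replicate 2 at 2.00 CPM, Asb4 in hyperthyroid wild-type replicate 4 at 68.3 CPM and Gpc4 in hyperthyroid wild-type replicate 3 at 69.9 CPM.

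For 23 of the 27 named genes the T3 response differed between the genotypes by the limma test of that difference. It was called for 4.26% of all genes tested and for 55 of the 535 near the sites. Part of the 27 genes was named for this difference and others for the largest wild-type changes, which enter it. The number thus describes the choice as well. The log2 difference, wild type minus Thrb-KO, was 2.83 for Col4a3, 2.02 for Col4a4, 1.31 for Hunk, 1.00 for Olfml2b, 1.18 for Slc35f1, 1.70 for Rcl1, 1.48 for Sh3rf2, 1.50 for Gpr83, 1.61 for Slc25a42, 1.01 for Rap1gap2, 0.78 for Zfp386 and 0.68 for Iglon5. Among genes that fell it was -1.08 for Serpinb1a, -1.64 for Bdnf, -2.21 for Asb4, -1.80 for Tmc3, -1.70 for Loxhd1, -1.54 for Kcnmb4, -1.24 for Gpc4, -0.87 for Myoc, -1.26 for Thrb, -0.82 for Shf and -0.87 for Ednra.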

How the results depend on the processing

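The number of sites without a TRβ peak was 906, and 1023 when a peak had to cover at least 0.5 of a site, 866 when a peak within 1 kb counted, and 1064 with peaks at a false discovery rate of 1e-10 or lower. The DR4 share of 18.3% was 2.65% at 1 mismatch, 43.4% at 3 and 14.9% in the central 200 bp; the AP-1 share of 23.3% was 81.0% at 1 mismatch and 19.5% in the central 200 bp. The share at starts was 10.0% within 500 bp and 21.4% within 5 kb, and, chosen after seeing the data, 9.16% for protein-coding transcript starts and 6.95% for one start per protein-coding gene. The cortex share was 3.09% within 1 kb and 0.552% with cortex peaks at a false discovery rate of 1e-10 or lower. These moves follow from the definitions.

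Genes near the sites that rose in wild type numbered 46, and 88 within 100 kb, 19 with no T3-regulated TRβ site nearby and 77 by adjusted p alone; those that fell numbered 55, and 88 within 100 kb and 97 by adjusted p alone. Rises in Thrb-KO numbered 7, and 4 at 0 kb, 4 at 5 kb, 2 with no T3-regulated TRβ site nearby, 11 with CPM above 1 in at least 4 libraries, 11 with no filter, 4 with a pseudocount of 5, 11 in replicates 1 and 2 alone and 11 by adjusted p alone. Falls in Thrb-KO numbered 5, and 8 within 100 kb, 8 in replicates 1 and 2 alone, 9 in replicates 3 to 5 alone and 12 by adjusted p alone. The difference between genotypes was called for 55, and for 35 with no T3-regulated TRβ site nearby. Where not given by the definition, the cause was not tested. Apart from the settings given with shares above, these counts stand without the share of all genes called, so they cannot be read against it.

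Leaving out 1 library at a time, the wild-type counts ran from 43 to 63 higher and from 48 to 59 lower. Those over all genes ran from 461 to 650 higher and from 692 to 788 lower, and the highest and lowest of 43 to 63 came with these 461 and 650. In Thrb-KO the counts near the sites ran from 5 to 8 higher and from 5 to 6 lower, and for the difference from 46 to 69. These stand without the counts over all genes. With the replicate block the counts near the sites, in the same order, were 47, 59, 8, 7 and 67. Over all genes they went from 509, 735, 54, 79 and 560 to 524, 770, 66, 98 and 753. The replicate block ended no wild-type call of a named gene. edgeR's quasi-likelihood test called 58, 54, 8, 5 and 62 (718, 675, 68, 92 and 629 of all genes), and DESeq2 69 for the difference (732 of all genes). Of 837 values of the wild-type change of the 27 named genes, 832 kept their side of the threshold, Junb changing sign under it in some settings; the 5 others were Gh without a filter and Esr1 without each of 4 libraries. Their Thrb-KO changes and differences between genotypes were not counted in this way.

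The lists give no value per replicate, so the depth behind single sites is unknown, and the receptor's binding under the 2 treatments was not analysed here.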

Other observations

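Summed markers of other cells in the RNA-seq libraries were lower than those of endocrine cells. From hypothyroid to hyperthyroid wild type, the mean summed CPM was 439 and 315 for 2 measured intermediate lobe markers (Pcsk2 the most abundant), 74.8 and 83.4 for 4 folliculostellate and stem cell markers (Aldh1a2), 41.6 and 51.7 for 5 posterior lobe markers (Col25a1), and 219 and 193 for 4 endothelial markers (Plvap). It was 184 and 186 for 4 stromal markers (Dcn), 53.4 and 42.7 for 4 immune markers (Csf1r), 44.6 and 71.5 for 3 blood markers (Hba-a1), and 232 and 171 for 4 markers of brain neurons (Snap25). Of these, 2 stromal markers fell and 1 marker of the neuron list rose by limma, and 1 endothelial marker had a site within 20 kb. In the neuron list 2 of the 4 genes were tested, 1 rose and 0 fell, while the sum fell. Which cells its most abundant gene, Snap25, came from was not tested, so this sum cannot be read as a change of neurons. For some lists the sums of hypothyroid and hyperthyroid wild-type libraries did not overlap. They were 379 to 534 and 276 to 357 CPM for the intermediate lobe and 202 to 246 and 133 to 197 CPM for the neuron list. For blood they were 28.5 to 55.5 and 65.7 to 77.7 CPM, and for folliculostellate and stem cells 70.4 to 78.0 and 80.2 to 88.8 CPM. Their part in the results was not tested.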
